A study of Mus musculus with 6 samples.

Results

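The 56 genes described here encode chemokines and chemokine receptors, and were measured in splenic B cells of p80HT transgenic mice and their wild-type (WT) littermates. They were chosen by name: each has a platform symbol that starts with Ccl, Cxcl, Xcl, Ccr, Cxcr, Xcr or Ackr and goes on with a digit, or is Cx3cl1 or Cx3cr1. They make up 34 ligand genes and 22 receptor genes of the 19938 genes with a probeset that is paired with exactly 1 symbol. The p80HT group was 3 mice of about 1 year of age with M-protein (a monoclonal immunoglobulin) in the serum. They carried the human coding sequence of p80HT, a lymphoma-derived form of NF-κB2 that lacks part of its C-terminus, under an H-2Kb promoter and an immunoglobulin μ enhancer, which drive it in T as well as B lymphocytes. The WT group was 3 littermates of the same age and of the same mixed C57BL/6J x SJL/J background, which all 6 mice share. B cells were selected from spleen with magnetic beads through B220, a surface protein of most mouse B cells, and the RNA of each mouse was run on 1 Affymetrix Mouse Gene 1.0 ST array.

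Chemokines are small secreted proteins that guide cells along their gradients by binding receptors coupled to inhibitory G proteins. Homeostatic chemokines place B cells within the spleen: Cxcl13 draws cells with Cxcr5 into follicles, Ccl19 and the Ccl21 proteins draw cells with Ccr7 toward the T cell zone, and Cxcl12 holds cells with Cxcr4 in bone marrow and red pulp. Inflammatory chemokines are induced in activated cells, many of them through NF-κB or interferons, and atypical receptors bind chemokines without G protein signalling and remove them.

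All values are log2 probeset signals, in which a difference of 1 is a doubling of signal. The B cell genes Ms4a1, Cd79a and Pax5 were above the background level of their array on all 6 arrays. This level was taken for each array as the 95th percentile of 1194 olfactory and vomeronasal receptor genes, and lay between 6.98 and 7.61. The array of p80HT replicate 3 stood apart. Its correlation across genes (which share each array and are no replicates) with the others was 0.914 to 0.925, while each of the others had a partner at 0.991 or above. The summed signal of 6 salivary and lacrimal gland genes was 46986 on that array, 643.7 to 649.7 on the other p80HT arrays and 503 to 614 on the WT arrays. Results that rest on this array are therefore given with all 6 arrays and without it.

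A gene was taken to have risen or fallen in p80HT B cells if it passed the threshold of the study's methods in a limma fit over all genes, which asks for a 1.5-fold difference and an unadjusted p under 0.01. The chemokine genes Ccl5 and Ccl9 and the receptor gene Ccr8 rose, and the receptor gene Cxcr4 fell. The 3 rises were 5.36% of the members, where 1.22% of all genes rose, and the single fall was 1.79% of the members, where 0.968% of all genes fell. At an adjusted p under 0.05 (Benjamini-Hochberg over all genes), limma called 0 members and 0.0552% of all genes. At an unadjusted p under 0.05 it called 11 members (19.6%), where 10.2% of all genes were called. The ordinary analysis of variance, the test of the study's methods, called 7 members (12.5%) at that level, where it called 9.6% of all genes. After adjustment it called 0 members. At the threshold of 1.5-fold with an unadjusted p under 0.01 it called 119 genes higher and 77 lower, but 0 members in either direction. The median log2 fold change of the members was 0.30, with 40 of 56 positive, beside a median of -0.02 over all genes. It was 0.36 over the 34 ligands and 0.28 over the 22 receptors.

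Without p80HT replicate 3 the members past the threshold were Ccl5, Ccl9, Ccr8, Cxcl10 and Ackr3 on the higher side, where 2.01% of all genes passed, and Cxcr4 on the lower side, where 1.45% passed. At an adjusted p under 0.05 there were 6 higher members (these 5 and Ccl19), or 10.7% of the members beside 2.56% of all genes. Cxcr4 was the 1 lower member at that level, beside 2.11% of all genes. The median of the members was then 0.16, with 43 of 56 positive, beside 0.04 over all genes.

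**Figure D1:**
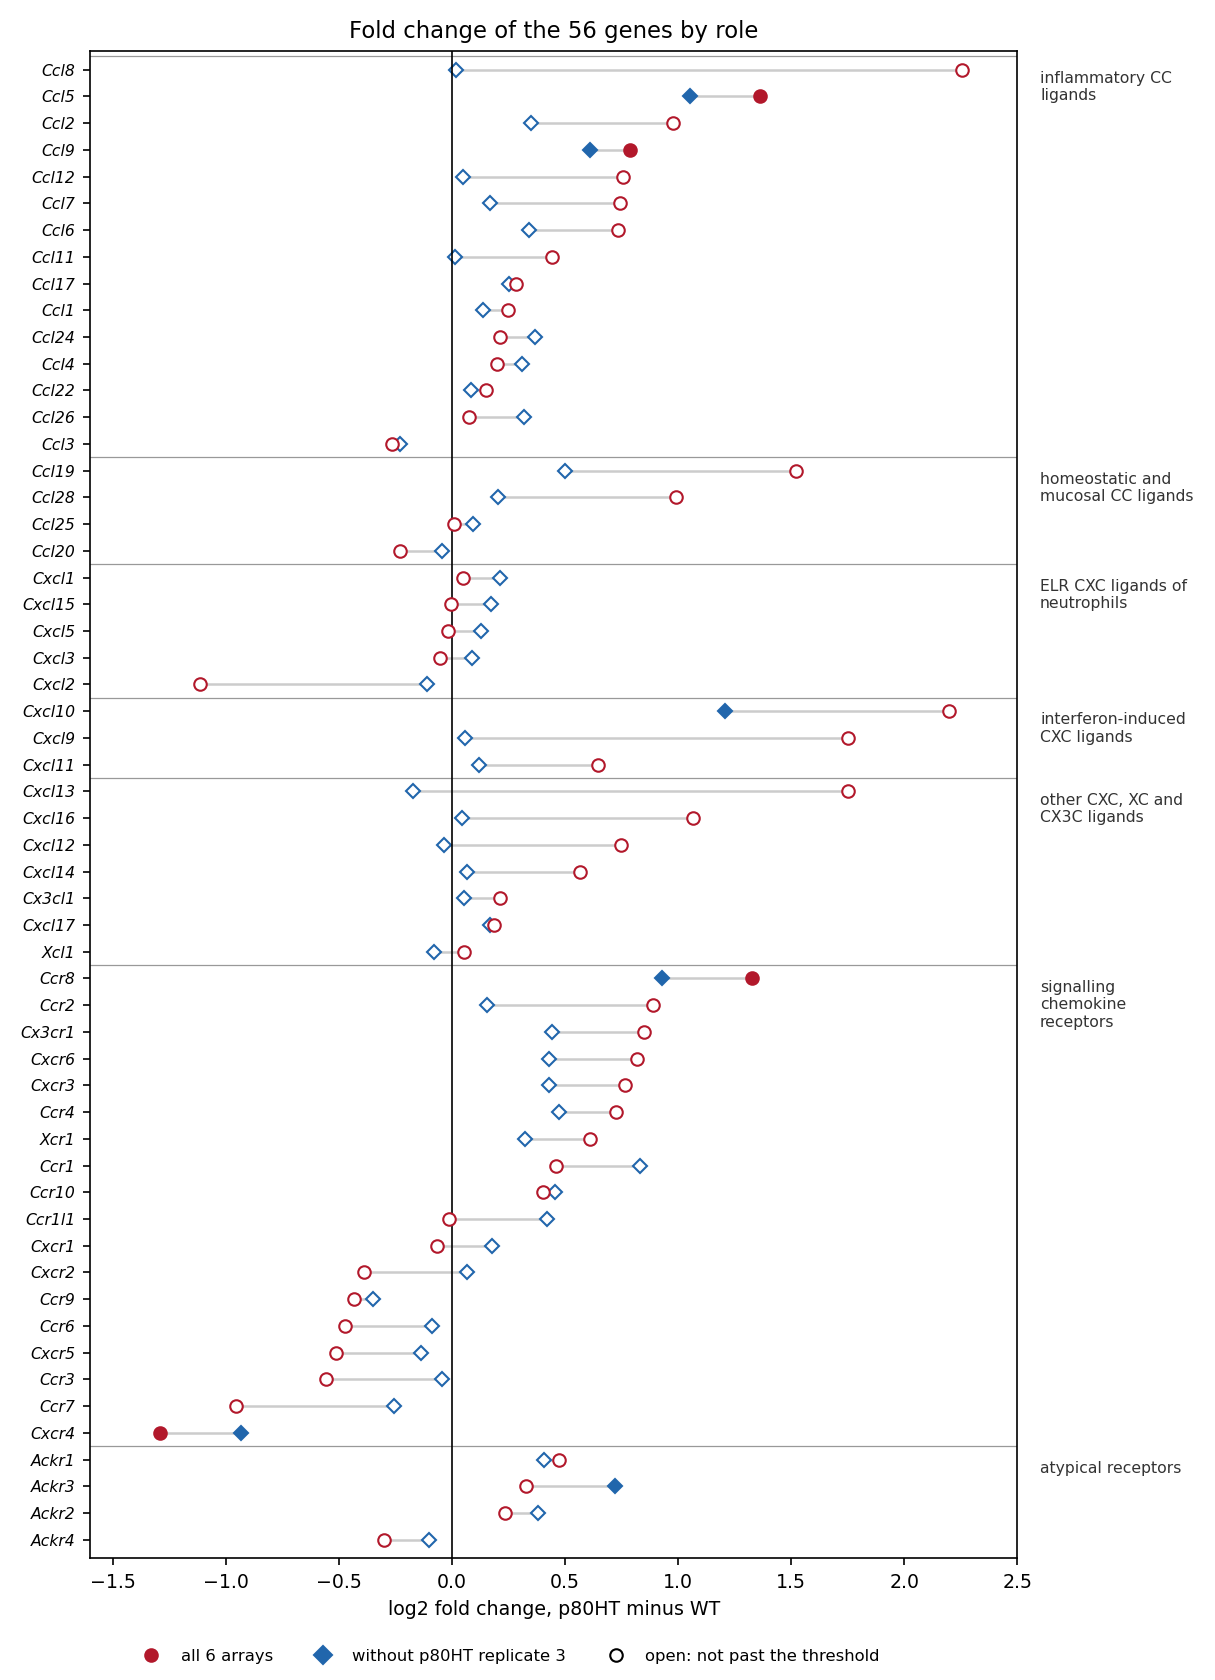
Log2 fold change (p80HT minus WT, x axis) of each of the 56 genes, in 7 groups by role, from the limma fit on all 6 arrays (circles) and without p80HT replicate 3 (diamonds). Filled symbols passed the threshold of 1.5-fold with an unadjusted p under 0.01. Ccl5, Ccl9, Ccr8 and Cxcr4 are filled in both fits, Cxcl10 and Ackr3 only without that array, and the long lines of Ccl8, Cxcl9 and Cxcl13 show how far that array moved their values.

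Among the 15 inflammatory CC ligands, 2 rose and 0 fell, and the median of all 15 was 0.44 (0.25 without p80HT replicate 3). Ccl5, which attracts T cells, monocytes and eosinophils, had signals of 12.91, 12.35 and 13.55 in p80HT mice, against 11.44, 11.50 and 11.78 in WT mice. All 3 p80HT arrays thus lay above every WT array. The groups averaged 12.9 ± 0.603 in p80HT and 11.6 ± 0.177 in WT mice (SD, n = 3 each). This gave a log2 fold change of 1.36 (SE 0.29), or 2.57-fold (limma adjusted p = 0.209). It was 1.05 without p80HT replicate 3, with an adjusted p of 0.00773, in a range of 0.000232 to 0.948 over all alternative fits of this gene. The rise no longer passed without WT replicate 1 (1.30) or WT replicate 2 (1.33), or in the ordinary analysis of variance.

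Ccl9, a mouse chemokine that acts on myeloid cells through Ccr1, is the next chemokine gene after Ccl5 in its cluster on chromosome 11. Its signals were 8.86, 8.65 and 9.28 in p80HT mice, against 8.05, 7.98 and 8.41 in WT mice, so that the lowest p80HT value lay above the highest WT value. The log2 fold change was 0.79 (SE 0.20), or 1.72-fold (limma adjusted p = 0.287). It was 0.61 without p80HT replicate 3, with an adjusted p of 0.0446, in a range of 0.00686 to 0.997 over all alternative fits of this gene. The rise no longer passed without WT replicate 1 (0.74), WT replicate 2 (0.70) or p80HT replicate 1 (0.82). It also did not pass in the ordinary analysis of variance, with array weights (0.48) or with median centring (0.72).

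The other members of this cluster, Ccl6, Ccl3 and Ccl4, did not pass. Ccl6, a mouse chemokine of myeloid cells, had 9.77, 9.34 and 10.74 in p80HT mice, against 8.80, 9.30 and 9.54 in WT mice (log2 fold change 0.73, and 0.34 without p80HT replicate 3). Ccl3, which B cells secrete on activation, had 11.82, 11.56 and 11.59 in p80HT mice, against 11.66, 11.89 and 12.21 in WT mice (-0.26, and -0.23 without replicate 3). Its close relative Ccl4 had 9.02, 8.92 and 8.63 in p80HT mice, against 8.45, 8.78 and 8.73 in WT mice (0.20, and 0.31 without replicate 3). The groups overlapped for each of these genes, so that within 1 cluster of neighbouring genes 2 passed the threshold and 3 did not. The genes were not compared with each other, and the log2 fold change of Ccl6 was close to that of Ccl9 (0.79). Ccl17 and Ccl22, the ligands of Ccr4, did not pass either. Ccl17 had 7.01, 7.16 and 7.18 in p80HT mice, against 6.90, 6.71 and 6.88 in WT mice (0.28), which was higher without overlap, but it was above the background level on only 1 array. Ccl22 had 7.39, 7.38 and 7.58 in p80HT mice, against 7.43, 7.40 and 7.06 in WT mice (0.15).

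**Figure D2:**
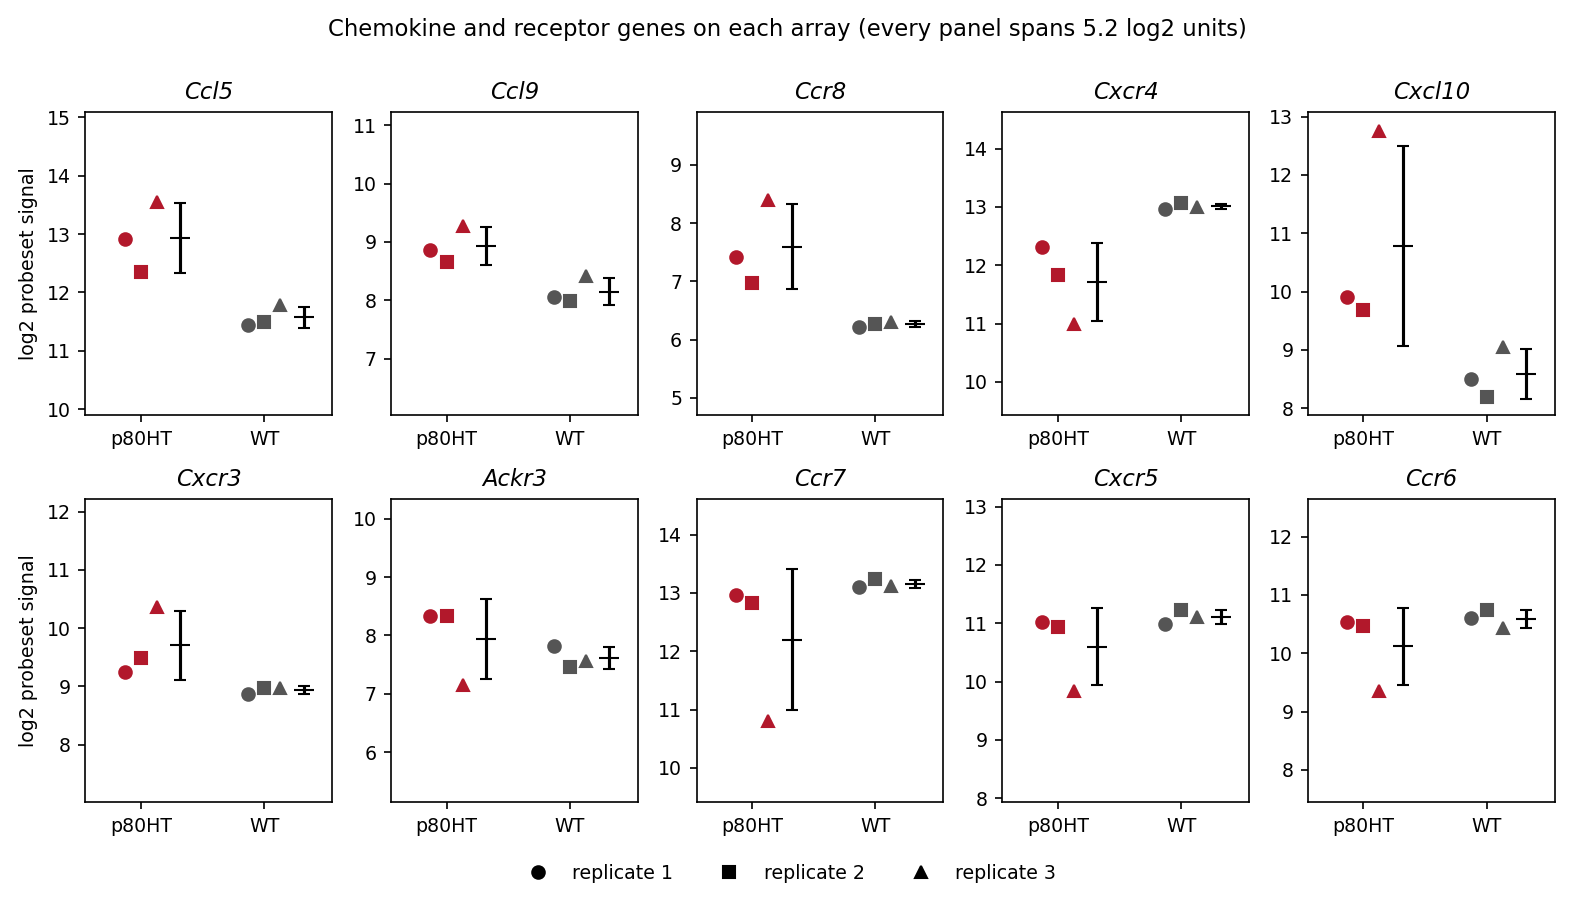
Log2 probeset signal (y axis) of 10 members in p80HT (red, left) and WT mice (grey, right), 1 point per mouse with its replicate number as the symbol, and bars for mean ± SD (n = 3 each). Every panel spans the same number of log2 units, but the levels of different genes are not comparable. For Ccl5, Ccl9, Ccr8, Cxcr4, Cxcl10, Cxcr3 and Ccr7 the groups do not overlap, and p80HT replicate 3 (triangle) is the p80HT array farthest from WT in these 7 panels.

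The 3 interferon-induced CXC ligands share the receptor Cxcr3. None passed the threshold on all 6 arrays, 1 had an unadjusted p under 0.05, and their median was 1.75 (0.12 without p80HT replicate 3). Cxcl10 had 9.91, 9.68 and 12.76 in p80HT mice, against 8.50, 8.20 and 9.05 in WT mice. Each p80HT array lay above every WT array, and replicate 3 lay far above the other p80HT arrays. Over all arrays its log2 fold change was 2.20 (SE 0.77, limma adjusted p = 0.421). Without p80HT replicate 3 it was 1.21 (SE 0.21), or 2.31-fold, with an adjusted p of 0.0118, in a range of 0.00576 to 1 over all alternative fits of this gene. The signal of Cxcl9 was 8.31, 8.12 and 13.31 in p80HT mice, against 8.33, 8.36 and 7.80 in WT mice. Cxcl11 had 6.48, 6.86 and 8.25 in p80HT mice, against 6.61, 6.57 and 6.48 in WT mice. For Cxcl9 and Cxcl11 the high value came from replicate 3 alone, and without it their log2 fold changes were 0.06 and 0.12, whereas Cxcl10 was higher on the other p80HT arrays as well.

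Promoters of 4 members that passed the threshold, on all 6 arrays or without p80HT replicate 3, are shown for the κB motif, the DNA element that NF-κB dimers such as those with p52 bind. Sequences are from RefSeq (GRCm38.p6), 5′ to 3′ on the strand of the gene and ending 1 base before its start, with matches to the motif in capitals.
Cxcl10 (chr5:92348890-92349059, minus strand): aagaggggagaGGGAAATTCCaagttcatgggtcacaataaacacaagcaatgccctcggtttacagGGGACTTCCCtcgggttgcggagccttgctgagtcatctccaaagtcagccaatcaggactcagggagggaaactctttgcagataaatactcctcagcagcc
Ccl9 (chr11:83578637-83578806, minus strand): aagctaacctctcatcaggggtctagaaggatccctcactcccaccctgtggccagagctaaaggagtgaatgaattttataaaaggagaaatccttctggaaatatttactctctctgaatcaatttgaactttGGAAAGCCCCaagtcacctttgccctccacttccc
Ccr8 (chr9:120091963-120092132, plus strand): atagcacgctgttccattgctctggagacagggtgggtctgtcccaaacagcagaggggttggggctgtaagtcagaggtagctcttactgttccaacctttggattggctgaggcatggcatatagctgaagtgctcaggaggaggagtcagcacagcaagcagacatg
Cxcr4 (chr1:128592300-128592469, minus strand): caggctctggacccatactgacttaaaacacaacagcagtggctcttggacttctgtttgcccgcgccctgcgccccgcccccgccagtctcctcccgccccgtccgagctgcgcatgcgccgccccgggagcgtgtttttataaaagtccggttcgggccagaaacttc
The promoter of Cxcl10 held 2 matches, 159 to 150 and 103 to 94 bases before the start, and that of Ccl9 held 1, 35 to 26 bases before it. No match lay in these windows of Ccr8 and Cxcr4, which says only that these letters are not there. The motif was searched on both strands from 250 bases before to 50 after each start. It occurred in 9 of the 42 members with a promoter in the table (21.4%), beside 5.14% of 27025 genes and 4.51% of 32851 promoters. The 9 were Ackr2, Ccl20, Ccl9, Ccr3, Ccr6, Cxcl1, Cxcl10, Cxcl2 and Cxcl3. Ackr3, which passed without p80HT replicate 3, had a promoter in the table with no match and is not shown. The other 14 members, Ccl5 among them, were not matched to a promoter. Of the 9 genes with a match, only Ccl9 passed the threshold on all 6 arrays, and Cxcl10 passed without p80HT replicate 3.

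Several receptors of T, NK and myeloid cells lay higher in p80HT samples. Ccr8, a receptor of Ccl1 and, in the mouse, of Ccl8 on T helper and regulatory T cells, had 7.42, 6.97 and 8.39 in p80HT mice, against 6.22, 6.27 and 6.31 in WT mice. The groups lay well apart, but the signal was above the background level of its array only on p80HT replicate 3. Ccr8 thus had a log2 fold change of 1.33 (SE 0.33), or 2.51-fold (limma adjusted p = 0.28). It was 0.93 without p80HT replicate 3, with an adjusted p of 0.00503, in a range of 0.000104 to 0.997 over all alternative fits of this gene. The rise no longer passed without WT replicate 1 (1.30), 2 (1.33) or 3 (1.35), or in the ordinary analysis of variance.

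Of the 18 signalling receptors, 6 lay higher on every p80HT array than on any WT array, which 8.86% of all genes did, and 1 of them, Ccr8, rose. Cxcr3, the receptor of Cxcl9 to Cxcl11 on effector T cells and some B cells, had 9.25, 9.49 and 10.37 in p80HT mice, against 8.87, 8.98 and 8.97 in WT mice (log2 fold change 0.76, limma adjusted p = 0.428). Cx3cr1, the fractalkine receptor of monocytes and NK cells, had 8.81, 8.72 and 9.99 in p80HT mice, against 8.42, 8.17 and 8.39 in WT mice (0.85, limma adjusted p = 0.453). Cxcr6, the receptor of Cxcl16, had 6.68, 6.74 and 7.87 in p80HT mice, against 6.22, 6.45 and 6.17 in WT mice (0.82). In each of these genes replicate 3 was the highest p80HT array, and the differences without it were 0.43, 0.44 and 0.43. Ccr4, a receptor of T helper and regulatory T cells, had 6.75, 6.35 and 7.31 in p80HT mice, against 6.07, 6.11 and 6.04 in WT mice (0.73, and 0.48 without replicate 3, limma adjusted p = 0.382). Ccr4 and Cxcr6 were above the background level on 1 array each. Ccr10, the Ccl28 receptor of T cells and of plasma cells that make IgA, had 7.66, 7.86 and 7.60 in p80HT mice, against 7.57, 7.01 and 7.34 in WT mice (0.40, and 0.45 without replicate 3). Ccr10 differed from the others in that replicate 3 was its lowest p80HT array.

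Summed signals of T cell, NK cell and macrophage genes lay higher on the same arrays. The summed signal of 13 T cell genes was 13193 to 27669 in p80HT mice, against 8245 to 9815 in WT mice. Cd2 had the highest signal of the 13 on every array except p80HT replicate 3. Its log2 fold change was only 0.06, and its lowest value (11.85) was on that array. Of the 13 genes 11 were higher without overlap of the groups and 3 rose (Cd3e, Cd3g and Cd28), while Trat1 stayed below the background level on all arrays. The median was 1.29, and 0.62 without p80HT replicate 3. Over all genes 8.86% were higher without overlap and 1.22% rose, which also applies to the NK cell and macrophage lists. For 9 NK cell genes the sum was 3393 to 8966 in p80HT mice, against 2595 to 3148 in WT mice, with 3 genes apart and 1 past the threshold (Nkg7). Nkg7 had the highest signal of the 9 on every array and so weighs most in this sum. The genes that were not apart included Ncr1 (log2 fold change 0.28), Prf1 (0.28) and Gzma (-0.18). Klrb1c, a defining NK cell gene, stayed below the background level on all arrays. For 11 macrophage and monocyte genes the sum was 12767 to 41332 in p80HT mice, against 9586 to 11987 in WT mice, with 7 genes apart and 1 past the threshold (Adgre1). Leaving out 1 array at a time ended the call of Cd3e (without WT replicate 1), of Cd3g (without WT replicate 1, 2 or 3), of Nkg7 (without WT replicate 1 or 2 or p80HT replicate 1) and of Adgre1 (without any array other than p80HT replicate 3), but not that of Cd28. The part of these cells in the values of Ccl5, Cxcl10, Ccr8, Cxcr3, Cx3cr1, Cxcr6 and Ccr4 was not tested. More cells of a type and more RNA per cell cannot be told apart in bulk samples.

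**Figure D3:**
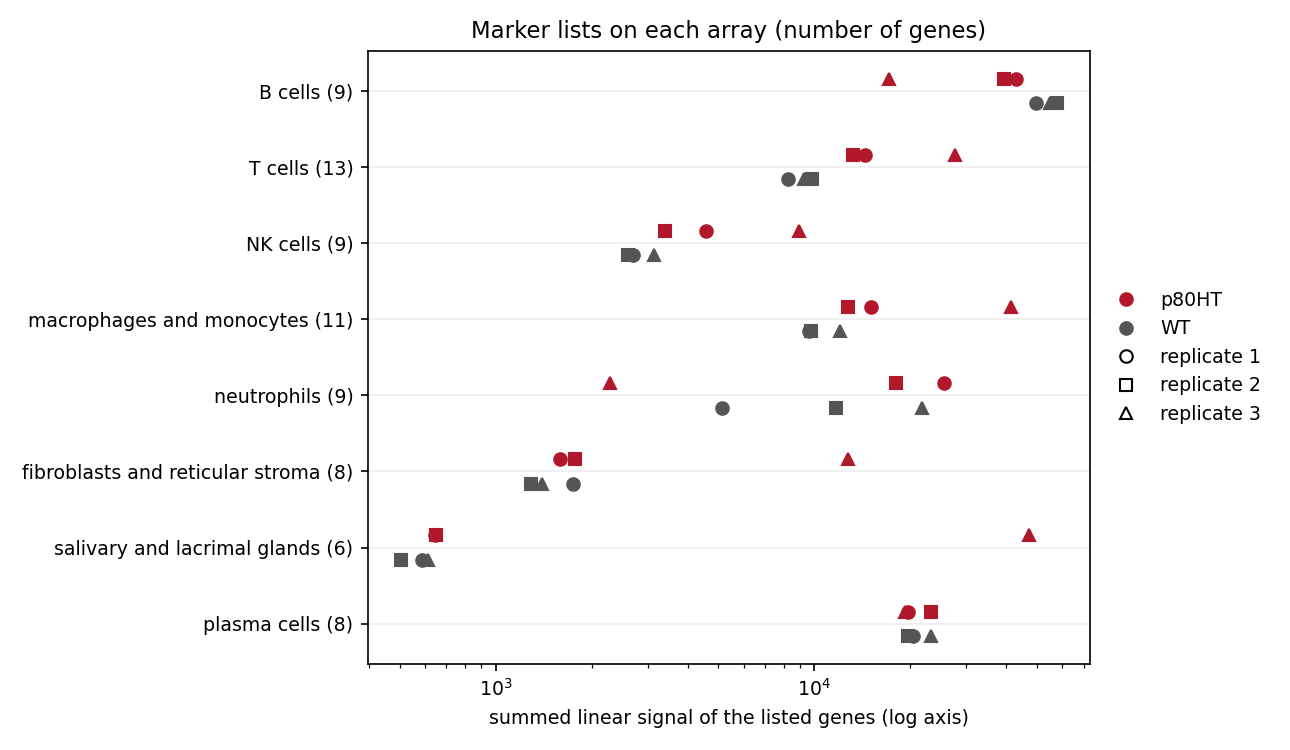
Summed linear signal of marker genes (x axis, log scale) for 8 cell or tissue types, with p80HT arrays (red) above WT arrays (grey) and the replicate number as the symbol. Sums of T cell, NK cell and macrophage genes are higher in p80HT mice without overlap, sums of B cell genes are lower, and p80HT replicate 3 lies far from all others in the stromal and gland genes. In the NK cell sum, Nkg7 has the highest signal on every array, and in the T cell sum Cd2 has it on every array except p80HT replicate 3.

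The receptors that position B cells were lower or overlapped. Cxcr4, the Cxcl12 receptor, had 12.31, 11.84 and 11.00 in p80HT mice, against 12.97, 13.06 and 13.00 in WT mice. The WT arrays lay within 0.08 of each other, and every p80HT array lay below them. Cxcr4 averaged 11.7 ± 0.664 in p80HT and 13.0 ± 0.042 in WT mice (SD, n = 3 each). This gave a log2 fold change of -1.29 (SE 0.31), or 2.45-fold lower (limma adjusted p = 0.257). It was -0.93 without p80HT replicate 3, with an adjusted p of 0.0055, in a range of 0.000651 to 0.997 over all alternative fits of this gene. The fall no longer passed without WT replicate 1 (-1.31), 2 (-1.27) or 3 (-1.30), or in the ordinary analysis of variance.

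Ccr7, which guides B cells to the T cell border, had 12.97, 12.82 and 10.80 in p80HT mice, against 13.10, 13.23 and 13.12 in WT mice. The groups did not overlap, but most of the log2 fold change of -0.95 (limma adjusted p = 0.589) came from replicate 3, and it was -0.26 without that array. Cxcr5, the follicle receptor, had 11.02, 10.93 and 9.84 in p80HT mice, against 10.98, 11.23 and 11.11 in WT mice. Its log2 fold change was -0.51, and -0.14 without replicate 3. Ccr6, the Ccl20 receptor of mature and memory B cells, had 10.53, 10.47 and 9.36 in p80HT mice, against 10.61, 10.74 and 10.43 in WT mice (-0.47, and -0.09 without replicate 3). Ccr6 on p80HT replicates 1 and 2 and Cxcr5 on replicate 1 thus lay within the WT values, which Cxcr4 did on no p80HT array. Cxcr5 on replicate 2 (10.93) lay just below the lowest WT value (10.98). Ccr9, the Ccl25 receptor of gut-homing lymphocytes and plasmacytoid dendritic cells, had 7.09, 7.22 and 6.91 in p80HT mice, against 7.49, 7.69 and 7.35 in WT mice (-0.43, and -0.35 without replicate 3, limma adjusted p = 0.404). It was lower on every p80HT array, and above the background level of its array on 1 array.

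Over all members, 3 (Cxcr4, Ccr7 and Ccr9) were lower in p80HT mice without overlap of the groups, or 5.36%, beside 11.9% of all genes. In the other direction 13 were higher without overlap, or 23.2%, beside 8.86% of all genes. Besides genes given above they included Ccl7, with 8.0, 8.02 and 9.73 in p80HT mice, against 7.87, 7.87 and 7.78 in WT mice. They also included Ackr1, the Duffy antigen receptor of erythroid cells and venules, with 5.97, 6.17 and 6.27 in p80HT mice, against 5.73, 5.54 and 5.72 in WT mice. Its log2 fold change of 0.47 had an unadjusted p under 0.01 but was under 1.5-fold, and its signal was below the background level on all arrays. The summed signal of 5 erythroid genes was 1480 to 2581 in p80HT mice, against 821 to 919 in WT mice. Of the 5 genes 3 rose (Alas2, Slc4a1 and Aqp1), beside 1.22% of all genes. Slc4a1 passed with 1 array left out only when that array was p80HT replicate 3. The summed signal of 5 endothelial genes overlapped, with 2012 to 3241 in p80HT mice, against 2719 to 3077 in WT mice. These genes went in both directions. Pecam1, which had the highest signal of the 5 on every array, fell (-0.92), beside 0.968% of all genes. Cdh5 (0.96) and Vwf (0.22) were higher without overlap. Emcn (1.31) and Kdr (0.61) overlapped between the groups. Cdh5 (9.77), Emcn (9.63) and Kdr (8.47) were highest on p80HT replicate 3, and Vwf on p80HT replicate 2 (7.93). Without p80HT replicate 3 the log2 fold changes of Cdh5, Emcn and Kdr were 0.26, 0.08 and 0.0. The part of these cells in the values of Ackr1 was not tested.

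B cell genes were lower on the same arrays as the positioning receptors. The summed signal of 9 of them was 17082 to 43050 in p80HT mice, against 49661 to 57844 in WT mice. Of the 9 genes 7 were lower without overlap, beside 11.9% of all genes, although none passed the threshold. Their median was -0.65, and -0.29 without p80HT replicate 3. The lowest values of both Ccr7 and Cxcr4 fell on the array with the lowest B cell sum. Cr2 (-1.99) and Fcer2a (-1.80), surface receptors of mature B cells, had the lowest log2 fold changes of the list, where Ms4a1 had -0.48. The part of the B cell content in the values of Cxcr4 and Ccr7 was not tested.

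The 4 atypical receptors included 0 past the threshold on all 6 arrays, and 1 (Ackr1) with an unadjusted p under 0.05. Ackr3, a scavenger of Cxcl12 that mouse marginal zone B cells carry, had 8.34, 8.34 and 7.15 in p80HT mice, against 7.82, 7.46 and 7.57 in WT mice. Replicate 3 lay below all WT arrays while the other p80HT arrays lay above them. The log2 fold change was 0.33 with all arrays. Without replicate 3 it was 0.72 (SE 0.13), or 1.65-fold, with an adjusted p of 0.0109 in limma, in a range of 0.000259 to 1 over all alternative fits of this gene. So on p80HT replicates 1 and 2 the signalling receptor of Cxcl12 was lower and its scavenging receptor higher than on every WT array. Ackr4, the scavenger of Ccl19, Ccl21 and Ccl25, had 7.15, 7.18 and 6.56 in p80HT mice, against 7.51, 7.31 and 6.98 in WT mice (-0.30, and -0.10 without replicate 3). Ackr2, the scavenger of inflammatory CC chemokines, had 9.01, 8.93 and 8.54 in p80HT mice, against 8.78, 8.59 and 8.39 in WT mice (0.24, and 0.38 without replicate 3).

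Most of the large fold changes of ligands came from p80HT replicate 3. On this array 16 members (28.6%) lay over 2-fold above the highest of the other 5 arrays, beside 4.9% of all genes, and 13 of the 16 were ligands. Another 5 members (8.93%) lay over 2-fold below the lowest other array, beside 1.34% of all genes: Ccr7, Ccr3, Cxcr5, Ccr6 and Cxcl2. Ccl8, in the mouse a ligand of Ccr8, had 5.73, 5.40 and 12.27 in p80HT mice, against 5.50, 5.44 and 5.69 in WT mice. It was above the background level of its array only on p80HT replicate 3. Cxcl13, the follicle chemokine of stromal and follicular dendritic cells, had 7.96, 8.31 and 13.90 in p80HT mice, against 8.07, 8.50 and 8.34 in WT mice. On the other p80HT arrays both lay close to the WT values. Their log2 fold changes were 2.25 and 1.75 on all arrays and 0.02 and -0.17 without replicate 3.

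Further ligands of stromal, epithelial and myeloid cells were also highest on replicate 3. Cxcl16, which macrophages and dendritic cells make, had 8.40, 8.36 and 11.44 in p80HT mice, against 8.28, 8.36 and 8.35 in WT mice. Cxcl12, the stromal ligand of Cxcr4, had 6.80, 6.76 and 9.12 in p80HT mice, against 6.84, 6.79 and 6.81 in WT mice. Both had a log2 fold change close to 0 without replicate 3 (0.04 and -0.03). Ccl28, a chemokine of mucosal and gland epithelium, had 6.41, 6.44 and 8.78 in p80HT mice, against 6.42, 5.94 and 6.30 in WT mice. Ccl2, a monocyte chemoattractant, had 7.71, 7.31 and 9.40 in p80HT mice, against 7.15, 6.99 and 7.34 in WT mice, and its receptor Ccr2 had 8.11, 7.43 and 9.97 in p80HT mice, against 7.22, 7.56 and 8.06 in WT mice. Their log2 fold changes without replicate 3 were 0.35 and 0.16. Of the 6 genes in the run Ccl2, Ccl7, Ccl11, Ccl12, Ccl8 and Ccl1 on chromosome 11, none passed the threshold with or without replicate 3.

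Ccl19, the T cell zone ligand of Ccr7, was high on replicate 3 and also differed on the other arrays. It had 8.70, 8.72 and 11.78 in p80HT mice, against 8.29, 8.14 and 8.20 in WT mice. The log2 fold change was 1.52 (SE 0.77, limma adjusted p = 0.555). Without replicate 3 it was 0.50 (SE 0.10), under 1.5-fold, with an adjusted p of 0.027, in a range of 0.019 to 1 over all alternative fits of this gene. For the mucosal ligands Ccl25 and Ccl20 the groups overlapped. Ccl25 had 8.52, 8.59 and 8.31 in p80HT mice, against 8.48, 8.51 and 8.41 in WT mice. Ccl20, the ligand of Ccr6, had 7.79, 7.64 and 7.15 in p80HT mice, against 7.94, 7.67 and 7.67 in WT mice. Of these 4 ligands 0 passed the threshold and 0 had an unadjusted p under 0.05 in limma, and their median was 0.50 (0.15 without replicate 3).

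Summed signals of stromal, gland and macrophage genes were highest on the same array. Of the macrophage genes, Adgre1 (9.61) and Cd14 (7.56) were lower there than on the other p80HT arrays. The summed signal of 8 fibroblast and reticular cell genes was 12700 on p80HT replicate 3, 1592 to 1769 on the other p80HT arrays and 1291 to 1744 on the WT arrays. Dcn, a fibroblast proteoglycan gene, had 6.15, 6.12 and 13.09 in p80HT mice, against 6.15, 5.79 and 5.69 in WT mice. The highest macrophage, T cell and NK cell sums also fell on replicate 3. The part of these cells in its ligand signals was not tested. Over the members the median range was 1.19 within the p80HT group, against 0.33 within the WT group.

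**Figure D4:**
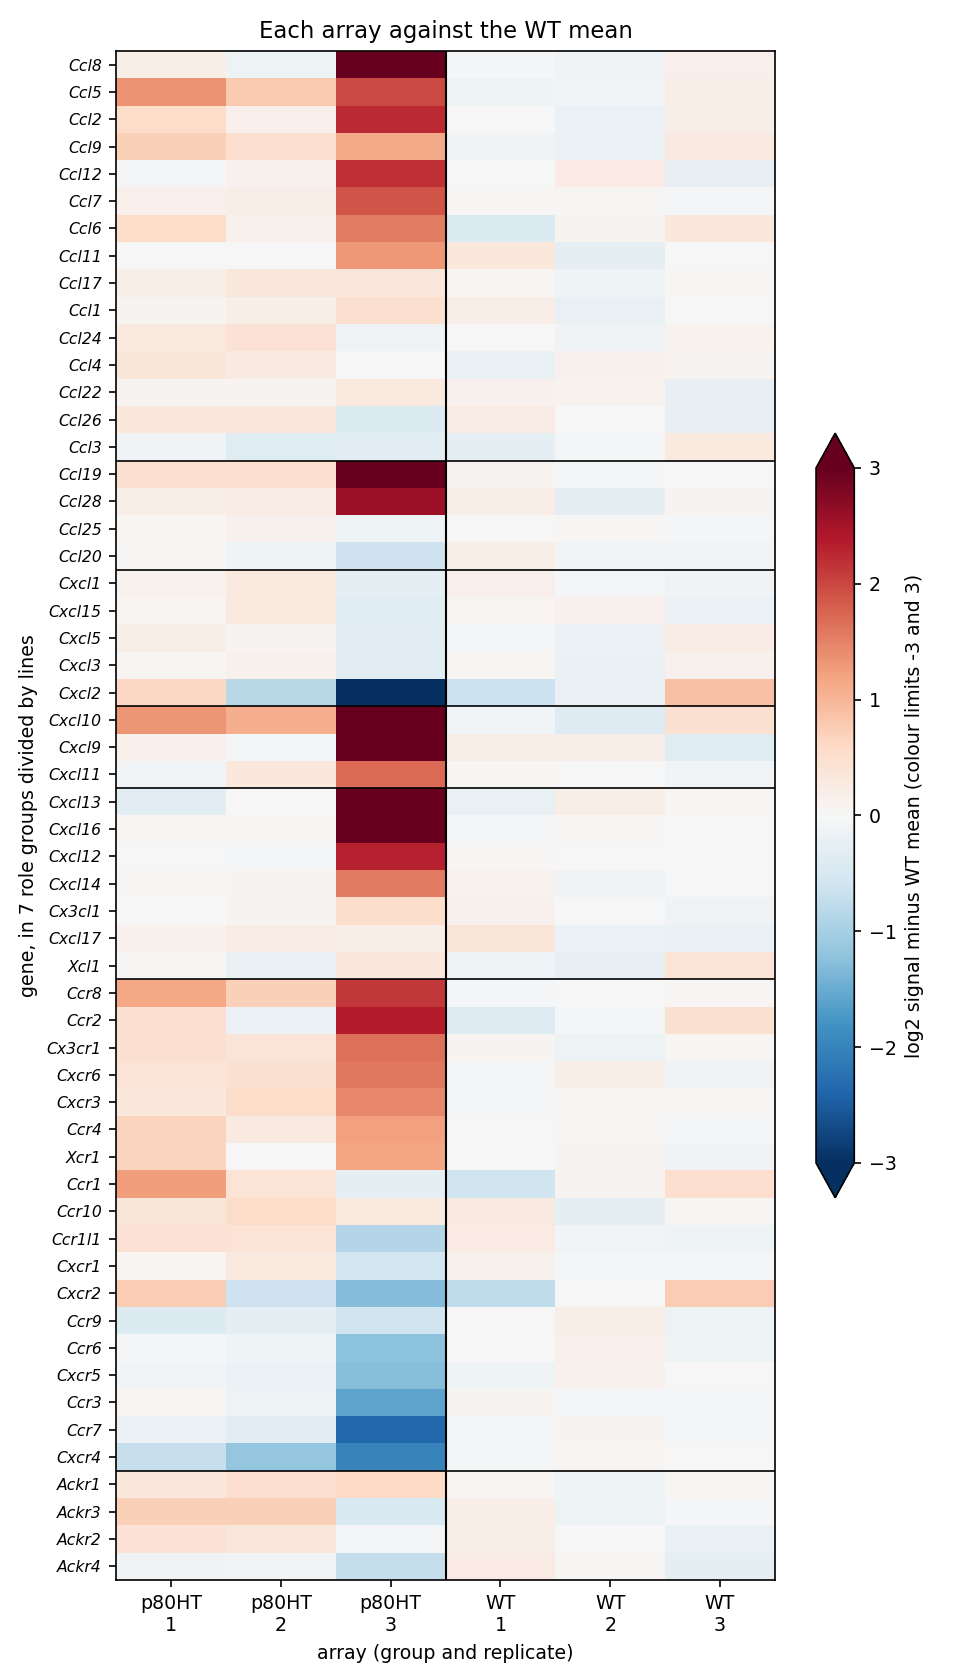
Log2 signal of the 56 genes (rows, in 7 role groups divided by lines) on each array (columns, p80HT left and WT right) minus the mean of the WT arrays, with colours limited to -3 and 3. The column of p80HT replicate 3 holds the deepest colours, such as Ccl8 at 12.27 and Cxcl13 at 13.90, while Ccl5, Ccl9, Ccr8 and Cxcr4 are coloured in the same direction in all 3 p80HT columns.

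Chemokine genes of neutrophils varied within both groups. The 5 CXC ligands with the ELR motif, which act on Cxcr2, included 0 past the threshold and 0 with an unadjusted p under 0.05 in limma, with a median of -0.02 (0.13 without replicate 3). Cxcl2 had 10.19, 8.74 and 6.45 in p80HT mice, against 8.93, 9.34 and 10.45 in WT mice. Its log2 fold change of -1.11 (SE 0.89, limma adjusted p = 0.727) was within this spread, and was -0.11 without replicate 3. Cxcr2, the neutrophil receptor of these ligands, had 9.0, 7.63 and 6.95 in p80HT mice, against 7.47, 8.26 and 9.0 in WT mice. Ccr1, a receptor of Ccl5 and Ccl9 on neutrophils and monocytes, had 8.93, 8.07 and 7.38 in p80HT mice, against 7.06, 7.76 and 8.18 in WT mice. The summed signal of 9 neutrophil genes was 25456, 18087 and 2287 in p80HT mice, against 5141, 11726 and 21728 in WT mice. The arrays with the highest sums, p80HT replicate 1 and WT replicate 3, also had the highest Cxcl2, Cxcr2 and Ccr1 signals, and p80HT replicate 3 had the lowest Cxcl2 and Cxcr2 signals. Other arrays did not keep this order. On p80HT replicate 2, with a sum of 18087, Cxcl2 (8.74) lay below every WT array and Cxcr2 (7.63) below WT replicate 2 (8.26). The lowest Ccr1 signal was that of WT replicate 1 (7.06). The part of neutrophils in these values was not tested.

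**Figure D5:**
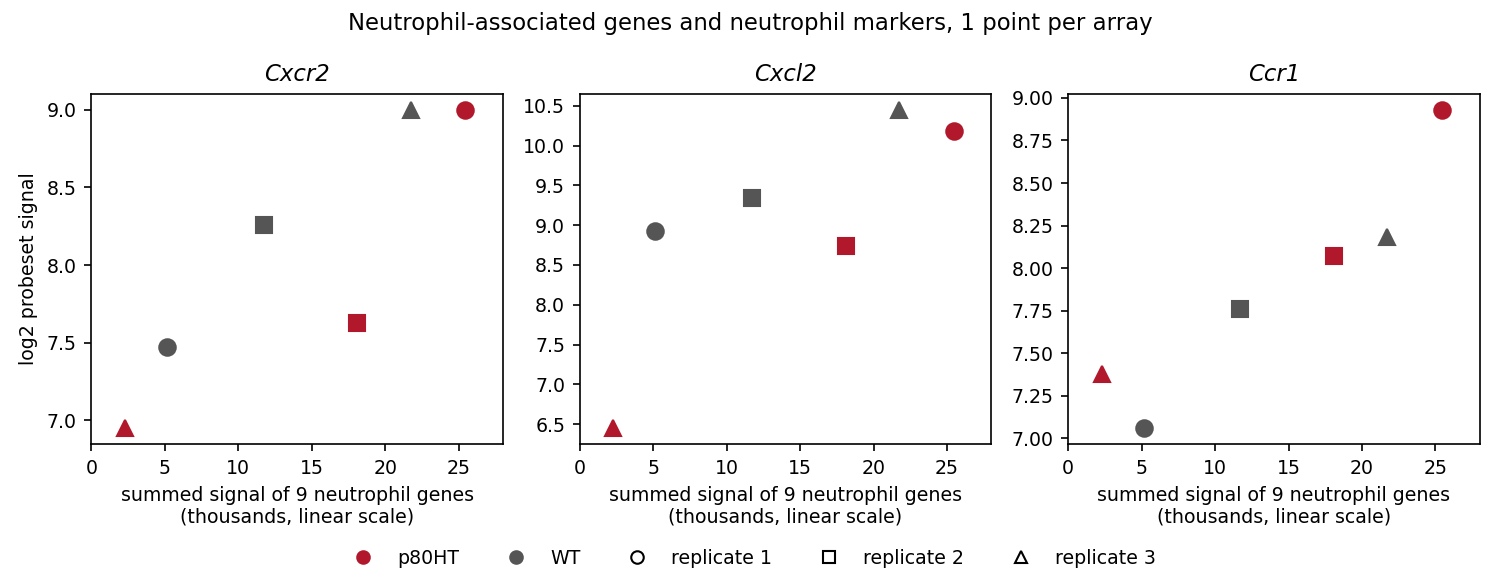
Log2 signal of Cxcr2, Cxcl2 and Ccr1 (y axis) against the summed linear signal of 9 neutrophil genes (x axis), 1 point per array, p80HT in red and WT in grey. The arrays of p80HT replicate 1 and WT replicate 3 lie at the upper right of each panel, and p80HT replicate 3, with a sum of 2287, lies at the lower left for Cxcr2 and Cxcl2. The array of p80HT replicate 2, with a sum of 18087, lies below every WT array for Cxcl2.

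The promoters of 3 of these neutrophil ligands, neighbours in a cluster on chromosome 5, share a κB match, shown here because the motif was present while none of the genes passed. In capitals are 2 matches that overlap with a shift of 1 base.
Cxcl1 (chr5:90891164-90891193, plus strand): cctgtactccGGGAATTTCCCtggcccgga
Cxcl2 (chr5:90903792-90903821, plus strand): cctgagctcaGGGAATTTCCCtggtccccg
Cxcl3 (chr5:90786018-90786047, plus strand): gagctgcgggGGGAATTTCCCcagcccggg
The signals of Cxcl1 were 7.96, 8.15 and 7.56 in p80HT mice, against 8.0, 7.80 and 7.74 in WT mice. Cxcl3 had 7.63, 7.71 and 7.25 in p80HT mice, against 7.65, 7.37 and 7.72 in WT mice. Both overlapped between the groups.

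The 7 other CXC, XC and CX3C ligands were all positive and 0 passed the threshold or an unadjusted p of 0.05 in limma, with a median of 0.57 (0.04 without replicate 3). Xcl1, a T and NK cell ligand of Xcr1 on dendritic cells, had 9.37, 9.11 and 9.65 in p80HT mice, against 9.16, 9.08 and 9.73 in WT mice. Xcr1 itself had 7.85, 7.17 and 8.36 in p80HT mice, against 7.21, 7.27 and 7.08 in WT mice (0.61, and 0.32 without replicate 3, limma adjusted p = 0.523). Ccr3, the eotaxin receptor, had 8.44, 8.22 and 6.80 in p80HT mice, against 8.45, 8.34 and 8.34 in WT mice, with replicate 3 again the low array. The members not named with values lay between 5.35 and 8.55 on every array, and none passed the threshold with or without replicate 3. Of the 56 members, 24 were above the background level on all arrays and 6 were below it on all.

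Of 30 genes that act downstream of chemokine receptors or in their turnover (G protein subunits, phospholipases, PI3Kγ subunits, Rac and Rap regulators, arrestins and receptor kinases), 1 rose and 0 fell, beside 1.22% and 0.968% of all genes. An unadjusted p under 0.05 in limma was found for 6 of the 30, beside 10.2% of all genes, and their median was 0.03. Grk3, a kinase that phosphorylates activated G protein-coupled receptors, had 9.52, 9.27 and 9.15 in p80HT mice, against 8.70, 8.46 and 8.49 in WT mice. Its log2 fold change was 0.77 (SE 0.15, limma adjusted p = 0.171), and 0.85 without replicate 3. It lay between 0.66 and 0.85 when 1 array was left out, and passed each time. Without p80HT replicate 3 the receptor kinase gene Grk5 passed as well, so that 2 of the 30 were then higher, beside 2.01% of all genes. Grk5 had 9.67, 9.31 and 9.09 in p80HT mice, against 8.76, 9.04 and 8.90 in WT mice (0.46, and 0.59 without replicate 3). Ptk2b, an adhesion kinase activated by chemokine receptors, had 11.62, 11.34 and 11.01 in p80HT mice, against 11.92, 11.97 and 11.85 in WT mice. Its log2 fold change of -0.59 did not pass the threshold (limma adjusted p = 0.339). Gnai2, the main inhibitory G protein of lymphocytes, had 12.62, 12.39 and 12.73 in p80HT mice, against 12.54, 12.63 and 12.51 in WT mice (0.02).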

How the data were processed

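RNA of B220-selected splenic B cells of 3 p80HT and 3 WT mice was measured on 1-colour Affymetrix Mouse Gene 1.0 ST arrays, with 1 array for each mouse. What the authors deposited are log2 signals of probesets, made by them with RMA in Partek, which corrects background, normalizes and summarises probes. Versions and genome build are not given in the sources used here. Array medians were 7.68 to 7.81 and values ran from 3.07 to 14.83. Precision is limited by the number of arrays.

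Of 28853 probesets, the platform table pairs 21789 with 1 symbol, 1621 with several and 5443 with none. The first were used, with the probeset of the highest mean over all 6 arrays per gene. For 2 of the 56 members (Ccl19 and Ccl25) this was a choice. Another 6 symbols that match the name rule (Ccl21a to Ccl21d, Ccl27a and Ccl27b) lie only on probesets with several symbols and are no members.

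Differences, p80HT minus WT, were fitted over all 19938 genes by lmFit and eBayes of limma 3.58.1 (R 4.3.3), 2-sided and without a block. The call was 1.5-fold with an unadjusted p under 0.01, and Benjamini-Hochberg values were adjusted over all genes. With 3 mice per group the smallest p of an exact permutation test is 0.1. Members and lists were chosen with earlier results of these data known. The naming rule took members past the threshold, the 6 largest positive and negative fold changes among the others, and genes of B cell positioning and of ligands of B, T or myeloid cells. Other members given with values (such as Cxcr2, Ccr1, Ackr1, Cx3cr1, Cxcr6 and Ccr4) were added after their values were seen. Same-numbered mice did not deviate together (correlations 0.07, -0.24 and 0.07), so the replicate number was a block only in an alternative. The other alternatives were leaving out each array, an intensity trend, the ordinary analysis of variance of the methods, array weights, quantile normalization, median centring, filters at the 25th and 50th percentile, the mean of probesets and other thresholds. Counts at an adjusted p without p80HT replicate 3 were added after seeing the data. The steps were tested on simulated data of 3 against 3 arrays. Of 100 genes changed 2-fold 91 were called, of 100 changed 4-fold 98, and 112 unchanged genes were called falsely. Each gene had the same spread on all simulated arrays and none stood apart, so the test cannot show how p80HT replicate 3 affects the calls. Promoters came from RefSeq (GRCm38.p6). Python 3.11.15, pandas 2.3.3 and matplotlib 3.10.9 were used.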

Additional observations from a re-analysis of the deposited data

How the results depend on the processing

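Leaving out 1 array at a time gave 137 to 401 genes higher in p80HT mice (243 with all arrays) and 69 to 290 lower (193). Of the chemokine and receptor genes 0 to 5 were then higher (3 with all arrays) and 0 to 1 lower (1), and 0 to 7 passed an adjusted p under 0.05. Both counts of members were 0 without WT replicate 1 or 2, and the lower one also without WT replicate 3. The highest counts of members came without p80HT replicate 2 or 3 (5 higher) and without p80HT replicate 3 (7 at an adjusted p under 0.05). Array weights set p80HT replicate 3 to a weight of 0.07, WT replicate 3 to 6.88, p80HT replicate 1 to 4.23 and the rest to 0.5 to 1.02. This fit thus rests mostly on 1 array per group, and its p values are to be read with that limit. It gave 478 genes higher and 422 lower. The members were 7 higher without Ccl9 (0.48), or 12.5% beside 2.4% of all genes. At an adjusted p under 0.05 there were 25 members, or 44.6% beside 35.9% of all genes. The ordinary analysis of variance, which uses each gene's own spread, gave 119 genes higher and 77 lower, and 0 members in either direction. Median centring moved the median of all genes to -0.09 and gave 190 genes higher and 308 lower, and Ccl9 (0.72) then missed the threshold. With a threshold of an unadjusted p under 0.05 and no fold, 9 members were higher (16.1%, beside 4.28% of all genes) and 2 lower (3.57%, beside 5.96%). With the replicate number as a block, for which the labels give no pairing, 363 genes were higher and 204 lower, and the members were 4 higher (Cxcl10 added) and 1 lower. The filters, the intensity trend, quantile normalization and the mean of probesets kept the calls of Ccl5, Ccl9, Ccr8 and Cxcr4, except that the filter at the 50th percentile left Ccr8 out.

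The sign of the log2 fold change turned for 7 named members, none of them past the threshold. With array weights Ackr4 was 0.10, Ccl20 0.07, Ccr3 0.03, Ccr6 0.03 and Cxcl13 -0.24. When 1 array was left out, Cxcl12 lay between -0.03 and 1.15 and Cxcl13 between -0.17 and 2.80, both lowest without p80HT replicate 3. Ccl25, at 0.01 in the reported fit, was -0.04 with the mean of probesets, -0.06 with median centring, -0.02 with quantile normalization and between -0.05 and 0.09 when 1 array was left out. The cause of these changes was not tested.

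With 3 mice per group and 1 array that stood apart, a call that missed the threshold is no sign of equal levels. Signals near the background level, as those of Ccr8 and Ccr9, compress fold changes. Levels of different probesets are not comparable, and transcripts of other cells in a B220 selection cannot be told apart from those of B cells.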

Other observations

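Chemokine ligands that the name rule could not use gave values of the same kind. On the 4 probesets shared by Ccl21 genes, T cell zone ligands of Ccr7, the signals of 1 were 7.72, 7.56 and 10.57 in p80HT mice, against 7.70, 7.61 and 7.45 in WT mice, with a log2 fold change of 1.03. The other 3 had identical signals of 7.89, 7.56 and 10.46 in p80HT mice, against 7.83, 7.83 and 7.66 in WT mice (0.86). As for Ccl19, p80HT replicate 3 was the high array. The 3 probesets shared by Ccl27 genes had log2 fold changes of -0.21, -0.21 and -0.24, and none of these 7 probesets passed the threshold. All 5 probesets of Ccl19 were higher on each p80HT array than on any WT array.

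Of 6 genes of chemokines or chemoattractant receptors with other symbols, 0 passed the threshold on all 6 arrays and 2 had an unadjusted p under 0.05 in limma, with a median of 0.39. Ppbp, a platelet chemokine that lies in the Cxcl5 to Cxcl2 cluster, had 10.10, 10.18 and 9.96 in p80HT mice, against 8.98, 9.20 and 9.86 in WT mice (log2 fold change 0.73, limma adjusted p = 0.379). Cklf, a chemokine-like factor, had 8.59, 8.57 and 8.93 in p80HT mice, against 9.01, 9.35 and 9.38 in WT mice (-0.55, limma adjusted p = 0.348). Without p80HT replicate 3 both passed the threshold, Ppbp at 0.79 and Cklf at -0.66.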
